A study of Mus musculus with 8 samples.

Results

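The genes described here encode the proteins of the mitochondrial ribosome under the symbols Mrps and Mrpl. They were taken as the rows of the deposited gene table whose name is Mrps or Mrpl followed by a number and at most 1 letter, and whose mean over 8 libraries reached 10 normalized counts (read counts scaled to each library with a DESeq2 size factor). Of 56832 rows, 78 have such a name and 77 passed the minimum. Of the 77 genes, 26 encode proteins of the small subunit and 50 proteins of the large subunit, and Mrps36, despite its symbol, encodes a component of the oxoglutarate dehydrogenase complex. The gene that failed was Mrpl53, with 1 read in each of 2 libraries and none in the other 6. All of its annotated exon bases (100%) also belong to other genes. The lowest gene that passed, Mrps6, had a mean of 85.9, so no gene lay near the minimum.

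The libraries were made from RNA of microglia, the macrophages that live in brain tissue. The cells were sorted by fluorescence from young adult male 5xFAD mice, and every mouse of either group carried this transgene set. 5xFAD mice express mutant human transgenes under a neuronal promoter and build up amyloid. Mice got intraperitoneal injections on 5 days a week for 4 weeks, of saline or of ethanol at 3 g/kg given as a 20% solution, and then had 2 weeks of withdrawal. There were 4 saline and 4 ethanol libraries, called saline 1 to 4 and ethanol 1 to 4 after their titles. The comparison asks whether prolonged alcohol exposure altered gene expression in microglia. The labels do not say whether each library came from its own mouse, so the errors below measure the spread between libraries, which may be partly technical. In such bulk samples, fewer cells of a type and less RNA per cell cannot be told apart.

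The table holds 14271351 to 17231301 gene-assigned reads per library. Microglial markers (P2ry12, Tmem119, Cx3cr1, Csf1r, Sall1, Siglech and Fcrls) were present 7 of 7, with summed levels of 532000 to 565000 normalized counts in saline and 562000 to 584000 in ethanol libraries. The 4 neutrophil markers summed to 1220 to 4900 and 902 to 5280, the 4 border macrophage markers to 303 to 1420 and 415 to 717, and the 4 oligodendrocyte markers to 947 to 1400 and 1000 to 1510. Astrocyte, neuron, endothelial and monocyte markers each summed to at most 988 in any library. Of 3 lymphocyte markers, Cd3e was at 0 in all libraries, and their sum was at most 21.1. The part of these cells in the values below was not tested.

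Mitochondria keep a small genome of their own. The messenger RNAs it encodes, all for subunits of the respiratory chain and ATP synthase, are translated inside the organelle by a ribosome that differs from the cytosolic one. Its RNAs come from the mitochondrial genome, while all of its proteins are encoded in the nucleus, made in the cytosol and imported. Many of these proteins descend from bacterial ribosomal proteins and others are particular to mitochondria. NRF1, the ETS factor GABP and YY1 are transcription factors known to act on nuclear genes for mitochondrial proteins.

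RefSeq start regions were matched by symbol for 68 of the 77 genes, each spanning 250 bases before to 50 bases after the start (GRCm38.p6). They were searched on both strands for the letters GCATGCGC (NRF1), CCGGAAG (ETS), AAGATGGCG (YY1) and CACGTG (E-box), none of which contains another. The NRF1 letters can overlap themselves on the other strand. Stretches from 100 bases before to 20 bases after the start are printed for 4 genes whose expression values follow. Mrpl22, which holds the same pair of motifs as Mrpl33, is printed too (named after its values were seen). The log2 folds, ethanol over saline, were -0.12 for Mrpl22 and 0.23 for Mrpl33, with unadjusted limma p-values of 0.459 and 0.0714. The part of the motifs in these values was not tested. Capitals mark matches on either strand, and adjoining matches run together. Mrpl33 (chr5:31613851-31613970, plus strand) and Mrpl22 (chr11:58171564-58171683, plus strand) hold 1 NRF1 and 1 ETS match each. Mrpl32 (chr13:14613018-14613137, minus strand) holds 4 NRF1 matches. Mrps18a (chr17:46110904-46111023, plus strand) holds an ETS and a YY1 match, and Mrpl58 (chr11:115403652-115403771, plus strand) holds 2 ETS matches.
Mrpl33: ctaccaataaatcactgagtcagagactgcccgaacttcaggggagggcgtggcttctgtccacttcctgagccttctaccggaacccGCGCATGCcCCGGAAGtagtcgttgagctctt
Mrpl32: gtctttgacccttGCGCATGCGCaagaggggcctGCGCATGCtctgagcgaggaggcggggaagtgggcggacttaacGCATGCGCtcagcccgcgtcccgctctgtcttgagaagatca
Mrpl22: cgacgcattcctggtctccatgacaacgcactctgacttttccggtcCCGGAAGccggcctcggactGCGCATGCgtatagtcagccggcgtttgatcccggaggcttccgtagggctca
Mrps18a: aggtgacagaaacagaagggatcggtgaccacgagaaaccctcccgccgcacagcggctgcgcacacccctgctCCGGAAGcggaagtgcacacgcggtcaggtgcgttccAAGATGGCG
Mrpl58: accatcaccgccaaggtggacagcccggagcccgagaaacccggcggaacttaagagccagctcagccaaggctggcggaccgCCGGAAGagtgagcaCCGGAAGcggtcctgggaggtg
A match to at least 1 of the NRF1, ETS and YY1 letters was found for 35 of the 68 genes, or 51.5%. Among all 9892 promoters of genes with a mean of at least 10 in these microglia the share was 28.1%, and among all 27025 symbols of the promoter table it was 13.6%. The ETS letters were the most frequent, in 25 genes (36.8%, against 20.9% and 9.93%). The NRF1 letters were in 8 genes (11.8%, against 6.08% and 3.05%), namely Mrpl9, Mrpl10, Mrpl17, Mrpl22, Mrpl32, Mrpl33, Mrpl39 and Mrps18b. The YY1 letters were also in 8 genes (11.8%, against 3.7% and 1.64%), namely Mrpl35, Mrpl36, Mrpl37, Mrpl42, Mrps11, Mrps18a, Mrps24 and Mrps27. The E-box was in 5 genes, a share of 7.4% that lay below the 11.8% of genes with a mean of at least 10 and near the 8.09% of all symbols. These matches are descriptions of the letters, with no test.

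**Figure D1:**
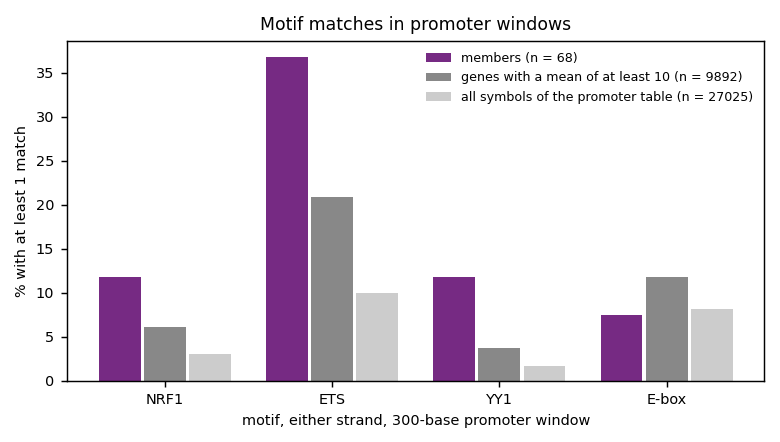
Share of promoter windows of 300 bases (vertical axis, %) with at least 1 match to each of 4 motifs (horizontal axis), for 68 mitochondrial ribosomal protein genes, 9892 genes whose mean reached 10 normalized counts, and all 27025 symbols of the promoter table. The bars of the mitochondrial ribosomal protein genes are the tallest for NRF1, ETS and YY1 (11.8%, 36.8% and 11.8%) and the shortest for the E-box (7.4%).

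Many of these genes also stand back to back with a neighbour. In an annotation of GRCm38, 18 of the 78 named genes (23.1%) have a protein-coding gene on the other strand that starts within 1000 bases upstream, against 1491 of 21951 protein-coding genes (6.8%). The latter include genes not expressed in these microglia, and the share among genes with a mean of at least 10 was not computed. Mrps12 starts 172 bases from Sars2, the mitochondrial seryl-tRNA synthetase gene. Mrpl32 starts 75 bases from Psma2, a proteasome subunit gene, and Mrps18b starts 45 bases from Ppp1r10. Exons of 25 of the 77 genes share bases with another annotated gene, and over 30% of the exon bases are shared in Mrpl19, Mrpl24, Mrps6, Mrps18b and Mrps25. For Mrpl19, Mrpl24, Mrps18b and Mrps25 the other gene lies on the opposite strand, which the library kit does not mark, and for Mrps6 the other genes lie on the same strand. The values of these 5 genes are therefore uncertain. How reads that fit both a gene and its pseudogene copies were counted is not stated, which leaves the values of such genes uncertain too.

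All 77 genes were expressed in every library, with at least 53 reads (Mrps6) and at most 1620 (Mrps21) per gene and library. Mean normalized counts had a median of 414, with 69 genes between 100 and 1000 and 7 genes at 1000 or above. Levels of different genes were compared after division by the length of all annotated exons of the gene, in normalized counts per kb. On this scale the median gene stood at 307, and 43 of the 77 genes lay within 2-fold of it. The levels spanned 49.3-fold from the lowest to the highest gene.

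Mrps21, of bacterial descent and part of the small subunit, was the highest at 2570 ± 395 normalized counts per kb (SD over 8 libraries, as for the next values). The large subunit genes Mrpl42 and Mrpl52, particular to mitochondria, followed at 1860 ± 236 and 1360 ± 134. Mrpl33 stood at 1240 ± 141 and Mrpl23, which encodes a protein near the exit of the nascent chain, at 881 ± 143. The library values of Mrps21 and Mrpl42 overlapped, as did those of Mrpl52, Mrpl33 and Mrpl23 in turn, while all libraries of Mrpl42 lay above those of Mrpl52. At the low end were Mrpl19 at 52.1 ± 7.56, Mrps35 at 58.7 ± 8.98, Mrps25 at 61.3 ± 10.5, Mrps5 at 75.3 ± 12.7 and Mrpl1 at 75.6 ± 9.51, again with overlapping libraries. The 4 highest of these genes have 478 to 679 annotated exon bases and the 5 lowest have 4162 to 6073. The length counts every annotated exon, whether or not microglia use it, and the part of length in this order was not tested.

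By subunit, the median level was 238 normalized counts per kb for the 26 small subunit genes (58.7 to 2570) and 336 for the 50 large subunit genes (52.1 to 1860). By descent, it was 345 for the 46 genes with a bacterial counterpart and 232 for the 30 genes particular to mitochondria. These ranges overlap almost entirely.

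**Figure D2:**
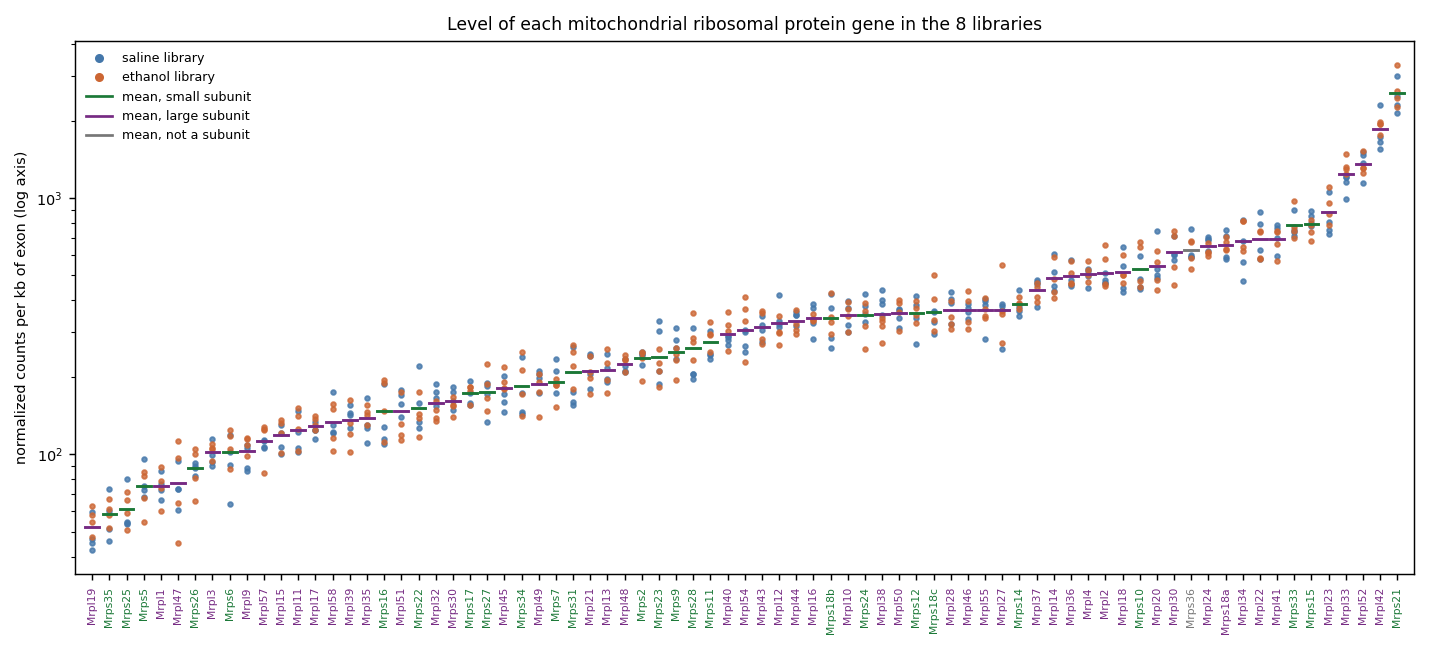
Normalized counts per kb of annotated exon (vertical log axis) for the 77 genes in order of their mean (horizontal axis), with a point for each saline and ethanol library and a bar for the mean, coloured by subunit. The genes run from Mrpl19 at 52.1 to Mrps21 at 2570, and the points of the 2 treatments overlap in all genes but Mrpl33 and Mrpl38.

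No gene of the mitochondrial ribosome passed the test of ethanol against saline. With limma on log2(value + 1), with Benjamini-Hochberg adjustment over all 14428 genes tested, 0 of the 77 genes had an adjusted p under 0.05, where 0.0% of all genes did, and the smallest adjusted p of the 77 was 0.997. edgeR and DESeq2 on reads recovered from the table also called 0 of the 77. At an unadjusted p under 0.05, limma gave 1 gene lower in ethanol, Mrpl38, which is 1.3% of the 77 against 1.93% of all genes. It gave 0 genes higher, against 1.7% of all genes. edgeR and DESeq2 gave 1 gene each at that threshold, counting both directions, against 495 and 558 of all 14428 genes. Groups did not overlap for 1 gene higher in ethanol, Mrpl33 (1.12% of all genes), and for 1 gene lower, Mrpl38 (1.2% of all genes). These shares lie near the background.

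Fold changes of the 77 genes were small and of mixed sign. Their log2 values, ethanol over saline, ranged from -0.32 to 0.33 with a median of 0.02, and 46 were positive and 31 negative. Over all genes tested the median was -0.01 and 48.8% were positive, values that the size factors hold near the middle by design. The small subunit had 17 of 26 positive and a median of 0.05, and the large subunit 29 of 50 and a median of 0.01. With each library left out in turn, the small subunit median ran from 0.01 to 0.11, and the large subunit median changed sign, from -0.05 without ethanol 3 to 0.05 without saline 3. Genes with a bacterial counterpart had a median of 0.03 and genes particular to mitochondria 0.02.

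The intervals give a range for the difference between the groups, gene by gene, from the spread between libraries, which may be partly technical. The 95% interval of the fold change lay inside 2-fold in either direction for 77 of the 77 genes, against 73.2% of all genes tested. It lay inside 1.5-fold for 68 genes, or 88.3%, against 56.3% of all genes. The 77 genes had means of 85.9 or more, while the genes tested go down to 10, and few reads widen an interval. Shares among genes of similar level were not computed, so these contrasts do not set the 77 genes apart. The 9 genes whose interval reached 1.5-fold were Mrpl38, Mrpl51, Mrpl54, Mrps6, Mrps16, Mrps23, Mrps28, Mrps31 and Mrps34, a list chosen after its values were seen. Mrps6, the gene with the fewest reads, had the interval that reached farthest up, to 1.74.

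**Figure D3:**
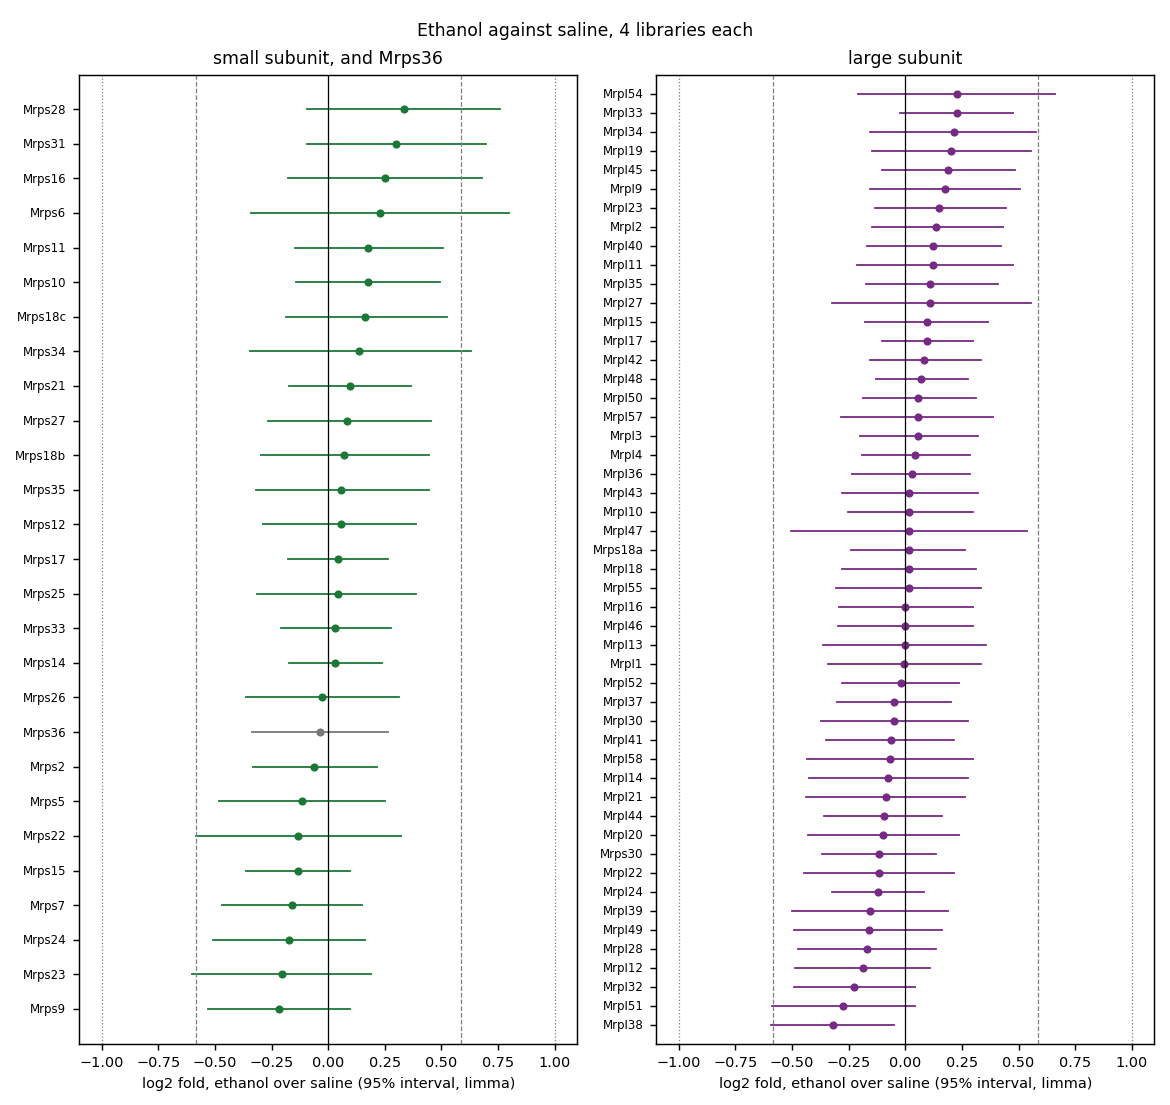
Log2 fold change, ethanol over saline, with its 95% limma interval (horizontal axis) for each of the 77 genes (rows), small subunit and Mrps36 on the left and large subunit on the right, with dashed lines at 1.5-fold and dotted lines at 2-fold. All intervals lie inside 2-fold, and the only interval that leaves out 0 is that of Mrpl38.

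Summed, the 77 genes took up a small share of the normalized counts, and the groups differed by less than the spread between libraries. This sum includes Mrps36 and leaves out the subunit genes with other symbols and the mitochondrial ribosomal RNAs. The share was 0.239%, 0.231%, 0.264% and 0.243% in saline 1 to 4, and 0.239%, 0.232%, 0.263% and 0.253% in ethanol 1 to 4. The means were 0.244 ± 0.0139% and 0.247 ± 0.0141% (SD, n = 4 each). The ratio of the small to the large subunit sum was 0.469, 0.479, 0.492 and 0.474 in saline and 0.502, 0.465, 0.507 and 0.471 in ethanol libraries. The groups overlap in both measures.

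Large subunit genes of lower value in ethanol were led by Mrpl38, which encodes a protein of the central protuberance that is particular to mitochondria. It had 565.0, 493.1, 616.8 and 544.1 normalized counts in saline 1 to 4 and 479.1, 384.0, 448.3 and 466.1 in ethanol 1 to 4. All saline libraries lay above all ethanol libraries, with the smallest gap between saline 2 and ethanol 1. The fold was 0.801 (95% interval 0.664 to 0.966), with an unadjusted limma p of 0.023 and an adjusted p of 0.997. Without ethanol 2 the unadjusted p was 0.0809, and without saline 3 it was 0.0706.

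Mrpl51, also particular to mitochondria, had 537.2, 583.8, 612.7 and 481.4 in saline and 448.7, 391.0, 598.7 and 409.5 in ethanol libraries. Ethanol 3 lay among the saline values and the other 3 ethanol libraries lay below them. The fold was 0.826 (0.665 to 1.03). Mrpl32, whose protein is matured by a protease of the inner mitochondrial membrane, had 499.3, 466.1, 569.9 and 528.7 in saline and 418.2, 451.1, 407.1 and 485.7 in ethanol libraries. Here ethanol 4 overlapped the saline range, and the fold was 0.854 (0.711 to 1.03). Its start region, printed above, holds NRF1 matches, as does that of Mrpl33. The part of these matches in the values was not tested.

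Mrpl12, a protein of the stalk that recruits translation factors, had 437.4, 415.0, 549.5 and 423.3 in saline and 392.2, 351.9, 396.1 and 457.9 in ethanol libraries, a fold of 0.878 (0.714 to 1.08). Saline 3 was the highest of the 8 and ethanol 4 the next. Mrpl24, of bacterial descent, had 1072.6, 965.0, 1078.6 and 1098.2 against 960.3, 924.3, 948.7 and 1042.3, a fold of 0.920 (0.800 to 1.06). It had the smallest coefficient of variation within groups of the 77 genes, and the groups overlapped because saline 2 lay below ethanol 4.

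Mrpl33 had the opposite arrangement to Mrpl38. Its protein descends from a bacterial one of the large subunit. It had 551.1, 474.8, 577.0 and 575.9 normalized counts in saline and 630.1, 618.6, 710.0 and 592.7 in ethanol libraries. Every ethanol library lay above every saline library, by a narrow margin between saline 3 and ethanol 4. The means were 544.7 ± 48.1 and 637.8 ± 50.6 (SD, n = 4 each), and the fold was 1.17 (0.985 to 1.39), with an unadjusted limma p of 0.0714. The reads are uncertain in part, since 22.4% of its exon bases belong to another gene as well.

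Mrpl45 encodes a protein beside the exit tunnel that holds the ribosome to the inner membrane. It had 356.9, 417.9, 491.4 and 389.7 in saline and 436.7, 467.2, 535.5 and 441.4 in ethanol libraries. Saline 3 was the only saline library inside the ethanol range, and the fold was 1.14 (0.930 to 1.40). Mrpl3, a core protein of bacterial descent, had 467.9, 488.3, 600.4 and 517.8 against 547.5, 550.4, 491.4 and 571.1, a fold of 1.04 (0.871 to 1.25), with groups that overlap.

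Mrpl58 is the member with an enzymatic activity of its own, a peptidyl-tRNA hydrolase that frees stalled chains and is built into the large subunit. It had 315.3, 318.5, 337.4 and 454.2 in saline and 300.9, 268.7, 389.1 and 407.5 in ethanol libraries. Saline 4 was the highest of all, and the fold was 0.955 (0.741 to 1.23).

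Among small subunit genes, Mrps28 and Mrps31 had the largest positive log2 folds. Mrps28 had 160.9, 154.4, 243.6 and 160.8 normalized counts in saline and 183.6, 223.6, 278.8 and 215.1 in ethanol libraries, a fold of 1.26 (0.937 to 1.69). Mrps31, particular to mitochondria, had 265.4, 243.2, 396.6 and 236.2 against 380.2, 271.7, 403.1 and 335.4, a fold of 1.23 (0.936 to 1.62). In both genes 3 saline libraries lay below every ethanol library, and saline 3 lay among the ethanol libraries. Without saline 3 both had an unadjusted limma p under 0.05 and neither was called after adjustment. Mrps9, of bacterial descent, had the lowest fold of the small subunit, 0.861 (0.693 to 1.07). It had 368.9, 395.7, 333.4 and 440.6 against 369.4, 329.8, 349.0 and 276.8, with overlapping groups.

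Mrps12 encodes the protein of the decoding centre, known in bacteria for mutations that give streptomycin resistance. It had 357.8, 318.5, 388.4 and 250.7 in saline and 348.7, 302.8, 370.0 and 327.2 in ethanol libraries, a fold of 1.04 (0.819 to 1.31). Mrps22, particular to mitochondria and mutated in some inherited mitochondrial disease, had 189.6, 152.5, 264.0 and 160.8 against 210.7, 140.4, 172.5 and 166.7, a fold of 0.913 (0.668 to 1.25). In neither gene were the groups apart. For Mrps22 the mean difference rests on saline 3, without which the log2 value was 0.03 in place of -0.13.

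**Figure D4:**
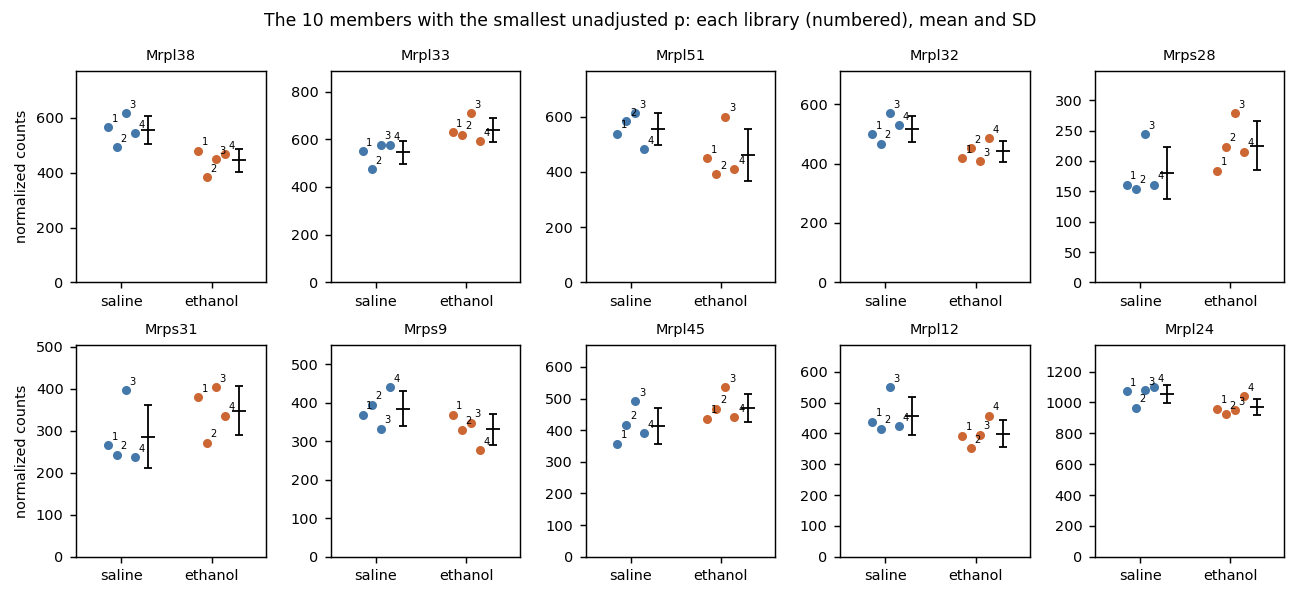
Normalized counts (vertical axes, each from 0) of 10 genes, those of smallest unadjusted p, in each of the 4 saline and 4 ethanol libraries, numbered, with mean and SD. Only Mrpl38 (saline above ethanol) and Mrpl33 (ethanol above saline) have groups that do not overlap, and saline 3 is the highest saline library for 8 of the 10.

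Mrps18a, Mrps18b and Mrps18c are 3 mammalian relatives of 1 bacterial protein. Mrps18c was counted above among the genes with a bacterial counterpart, and Mrps18a and Mrps18b, which hold other places in the ribosome, among those particular to mitochondria. The product of Mrps18a sits in the large subunit while the other two sit in the small one. Per kb they stood at 658, 341 and 361 normalized counts. Mrps18a had 736.0, 608.9, 779.9 and 601.4 normalized counts in saline and 657.2, 647.6, 700.0 and 728.5 in ethanol libraries, a fold of 1.01 (0.847 to 1.20). Mrps18b had 306.1, 279.9, 454.7 and 402.4 against 369.4, 318.8, 460.3 and 356.0, a fold of 1.05 (0.815 to 1.36). It shares 59.1% of its exon bases with another gene. Mrps18c had 278.3, 309.8, 338.4 and 340.6 against 313.9, 285.7, 469.3 and 378.7, a fold of 1.12 (0.880 to 1.44). The groups overlap in all 3 relatives, and the level per kb of Mrps18a was the highest of the 3.

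Libraries of the same treatment also differed from each other. The coefficient of variation within groups (the pooled SD of the saline and the ethanol libraries over the mean of all 8) had a median of 13.2%, against 4.92% from counting alone. The 4.92% takes each read as an independent molecule, which these reads are not, so it may be too low. The coefficient of variation within groups was at most 10% in 16 genes and over 20% in 8. By this measure the steadiest genes were Mrpl24 at 5.52%, Mrpl17 at 5.58% and Mrpl48 at 5.91%. The most variable was Mrpl47 at 30.7%, with 246.9, 317.5, 246.7 and 203.5 normalized counts in saline and 152.1, 379.0, 326.9 and 217.1 in ethanol libraries. Its highest and lowest values, 2.49-fold apart, were both in ethanol libraries. Mrpl27 was the only other gene that spanned more than 2-fold, from 194.9 to 415.2. Mrpl17, Mrpl48, Mrpl47 and Mrpl27 were named after their values were seen.

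Part of this variation was common to the genes. The median deviation of the 77 genes from their own log2 means was -0.07, -0.10, 0.15 and -0.01 in saline 1 to 4 and -0.05, -0.10, 0.11 and 0.10 in ethanol 1 to 4. Saline 3 held the highest value of 26 genes and ethanol 3 that of 20, while ethanol 2 held the lowest value of 21. In saline 3, 56 of the 77 genes lay above their own mean, against 20 in saline 2. The library means of these medians, -0.01 in saline and 0.02 in ethanol, differed by less than their SD within groups of 0.11.

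Cytosolic ribosomal protein genes, which encode the other ribosome of the cell, were also highest in saline 3, ethanol 3 and ethanol 4, with larger deviations. Their medians over 79 genes were -0.14, -0.10, 0.31 and 0.01 in saline and -0.22, -0.21, 0.18 and 0.17 in ethanol libraries. The 8 mitochondrially encoded messenger RNAs that passed the minimum stood at -0.02, -0.24, 0.34 and 0.13, and -0.29, -0.19, 0.14 and 0.18. The median over the 29 genes of mitoribosome assembly and ribosomal RNA modification stayed within -0.06 to 0.03 in every library, while single genes of that list varied more. Over all genes tested the median deviation was 0.01 in each library, which the size factors, set on the median gene, bring about by design.

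The library names in the labels carry the numbers 163, 164 and 165, whose meaning the labels do not give. Letters follow the numbers, L or O in saline and R or RL in ethanol libraries. Their meaning is not given either, and whatever they stand for cannot be told apart from the treatment. Saline 3 and ethanol 3 bear 163, saline 1, saline 4 and ethanol 4 bear 164, and saline 2, ethanol 1 and ethanol 2 bear 165. Of the 77 genes, 46 had their highest value in a library numbered 163, 23 in 164 and 8 in 165. Of all 14428 genes tested, these counts were 4078, 5503 and 4847, and the numbers do not hold equally many libraries. Libraries numbered 163 lay above those numbered 165 for 66 of the 77 genes (85.7%), with a median log2 difference of 0.21. Over all genes tested 49.4% lay above, a share that the size factors hold near the middle by design. Of the cytosolic ribosomal protein genes 98.7% lay above, with a median difference of 0.42, and of the mitoribosome assembly genes 44.8%. Within the numbers, the median log2 difference of ethanol from saline over the 77 genes was 0.00 in 163, 0.11 in 164 and 0.04 in 165. For Mrpl38 the log2 difference within the numbers was -0.46, -0.25 and -0.20, and for Mrpl33 it was 0.30, 0.07 and 0.39, the same sign in each. Each number holds 1 or 2 libraries of a group, so these values have no error. With the number as a covariate in limma, 0 genes were called, and unadjusted p-values were 0.042 for Mrpl38 and 0.0497 for Mrpl33.

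**Figure D5:**
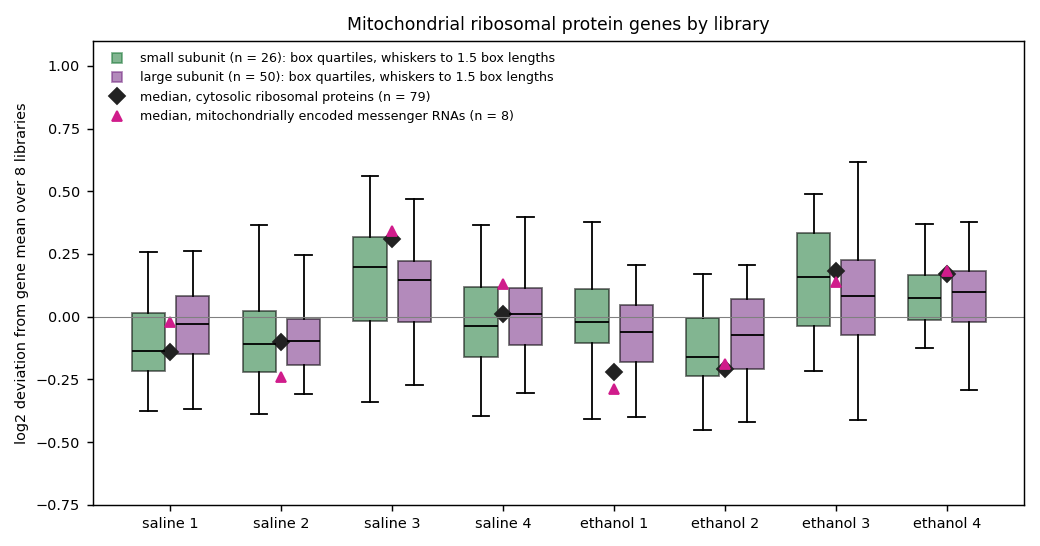
Log2 deviation of each gene from its mean over the 8 libraries (vertical axis) by library (horizontal axis), as boxes for 26 small and 50 large subunit genes (genes beyond the whiskers are not drawn), with medians of 79 cytosolic ribosomal protein genes and 8 mitochondrially encoded messenger RNAs. Saline 3, ethanol 3 and ethanol 4 stand above 0 for all 4 sets, and the boxes of the 2 treatments cover the same range.

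Other genes of mitochondrial translation were read from lists of the pathway, and limma called 0 of them after adjustment in every list. At an unadjusted limma p under 0.05, 1.7% of all genes tested were higher in ethanol and 1.93% lower. Groups did not overlap for 1.12% and 1.2% of all genes. In each list the gene of smallest p is named, whatever its value. The 5 subunit genes with other symbols (Dap3, Ptcd3, Aurkaip1, Chchd1 and Gadd45gip1) had 1 positive and 4 negative values and a median log2 fold of -0.06. Dap3, a GTP-binding protein of the small subunit, had the smallest p of these, with 379 ± 30.9 normalized counts in saline and 339 ± 49.9 in ethanol and a fold of 0.891 (0.715 to 1.11).

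Of 14 translation factors and related genes, 5 were positive and 9 negative, with a median of -0.08. Gfm1, the elongation factor that moves the ribosome along the messenger RNA, was the 1 gene with an unadjusted p under 0.05. It had 326.4, 345.5, 420.0 and 335.2 normalized counts in saline and 233.6, 267.7, 281.8 and 307.7 in ethanol libraries. All ethanol values lay below all saline values, and the fold was 0.765 (0.612 to 0.957), with an unadjusted limma p of 0.0217 and an adjusted p of 0.997.

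Of 29 genes of mitoribosome assembly and ribosomal RNA modification, 16 were positive and 13 negative, with a median of 0.02. Mtg2, a GTPase of large subunit assembly, had 482 ± 86.5 against 552 ± 92.0, a fold of 1.15 (0.907 to 1.45). Of 14 genes of mitochondrial transcription and RNA stability, 8 were positive and 6 negative, with a median of 0.12, and Tfb2m, an initiation factor of mitochondrial transcription, had 251 ± 37.6 against 193 ± 54.9, a fold of 0.753 (0.548 to 1.03).

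Of 16 mitochondrial aminoacyl-tRNA synthetase genes, which charge tRNAs for this ribosome, 9 were positive and 7 negative, with a median of 0.07. Mars2, for methionine, was the 1 gene of these with an unadjusted p under 0.05. It had 109.1, 152.5, 114.2 and 100.8 normalized counts in saline and 190.1, 179.5, 212.6 and 112.2 in ethanol libraries. Ethanol 4 lay inside the saline range and the other 3 ethanol libraries lay above it. The fold was 1.43 (1.01 to 2.03), with an unadjusted limma p of 0.0436 and an adjusted p of 0.997. The groups of Rars2, for arginine, did not overlap, with all ethanol libraries higher (named after its values were seen). Sars2, the neighbour of Mrps12, had 141 ± 6.04 and 112 ± 31.7, a fold of 0.774 (0.553 to 1.08), while Mrps12 stood at 1.04.

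Of 10 regulators of mitochondrial biogenesis, 9 passed the minimum, with 5 positive, 4 negative and a median of 0.01. Ppargc1a, the coactivator best known for this role, had a mean of 7.33 and was not tested. Yy1 had 1120.7, 941.9, 792.1 and 1051.9 normalized counts in saline and 656.1, 773.0, 747.1 and 775.8 in ethanol libraries. Its groups did not overlap, and the fold was 0.761 (0.638 to 0.907), with an unadjusted limma p of 0.00462 and an adjusted p of 0.997. Esrra, a nuclear receptor, also had an unadjusted p under 0.05, at 590 ± 42.4 and 490 ± 35.4 (named after its values were seen). Nrf1 had 1060 ± 70.8 and 1110 ± 124, and Gabpa, the DNA-binding subunit of GABP, 1120 ± 149 and 1240 ± 117 (SD, n = 4 each).

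The cytosolic ribosomal protein list had 79 tested genes of 83, with 19 positive, 60 negative and a median of -0.04. The 8 tested mitochondrially encoded messenger RNAs of 13 all had values below 0, with a median of -0.13 that is smaller than the SD of 0.24 between library medians within groups. The mitochondrial ribosomal RNAs mt-Rnr1 and mt-Rnr2, the RNA core of the same ribosome, had folds of 0.752 (0.587 to 0.963) and 0.850 (0.679 to 1.07), with unadjusted limma p-values of 0.0264 and 0.147. Ethanol libraries overlapped saline libraries in both RNAs.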

How the data were processed

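Per the labels' protocols, RNA of sorted microglia was amplified as SMARTer cDNA and made into NexteraXT libraries, which do not mark strand. The build was GRCm39 and the tools included STAR 2.7.9a, featureCounts 2.0.1 and DESeq2, per the submitters' processing notes. Their parameters and the gene annotation were not stated. The table the authors deposited holds signal values, named as DESeq2-normalized counts. Dividing each library by its step gave whole reads within 1e-06 for 100% of values above 0, with no molecular identifiers, so reads are not independent molecules.

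The deposited values were tested as log2(value + 1), which understates changes of low genes, with limma 3.58.1 (variance trend, two-sided, R 4.3.3) on 14428 genes with a mean of at least 10, ethanol against saline. Benjamini-Hochberg adjustment ran over all of them, with a threshold of 0.05. edgeR 4.0.16 (quasi-likelihood) and DESeq2 1.42.0 were run on the recovered reads. The fits were tested on simulated data. The members, lists and tests were chosen with earlier results of these data known. Named were the genes with the 10 smallest p, those whose groups do not overlap, the 5 highest and 5 lowest per kb, 9 genes by function (Mrps18a, Mrps18b, Mrps18c, Mrps12, Mrps22, Mrpl3, Mrpl12, Mrpl45 and Mrpl58) and the gene of smallest p of each pathway list. Exon lengths and overlaps were taken by symbol from GENCODE M21 (GRCm38). Promoter windows came from RefSeq (GRCm38.p6). A few genes of the marker and pathway lists are not reported here, and list counts leave them out.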

Additional observations from a re-analysis of the deposited data

Results flagged for a closer look

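The 32 genes named by rule, the summed share and the ratio of the subunit sums were searched for a library that stands apart within its group, and the other genes were not. In 4 of the named genes, 1 saline library stood apart from the other 3 by more than Dixon's 95% limit. Mrps28 had 243.6 normalized counts in saline 3, where the other saline libraries had 154.4 to 160.9. Mrpl12 had 549.5 in saline 3, against 415.0 to 437.4. Mrps25 had 489.3 in saline 3, against 325.2 to 331.0, and 58.2% of its exon bases are shared with another gene. Mrpl58 had 454.2 in saline 4, against 315.3 to 337.4. These were 4 of the 68 groups of 4 libraries searched, or 5.88%, and chance flags about 1 in 20. Saline 3 is also the library with the highest median deviation of the 77 genes, 0.15 on the log2 scale, and what sets it apart was not tested.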

How the results depend on the processing

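No gene was called under any of 18 alternatives, and the count of the mitochondrial ribosomal protein genes called was 0 in each. These were pseudocounts of 0.5 and 5, a minimum mean of 50 or none, quantile normalization, the library name number as a covariate, edgeR, DESeq2, the sample number as a block, each library left out, and samples 1 and 2 against 3 and 4 as a term, which was added after seeing the data. A median without the 25 genes that share exon bases, also added after seeing the data, was 0.03. The median log2 fold, 0.02 in the main setting, ranged from -0.01 (without ethanol 3 or saline 2) to 0.06 (without saline 3). The smallest adjusted p of the 77 genes stayed between 0.917 (limma without a filter) and 1.0. The number of the 77 genes with an unadjusted p under 0.05 was 1, but 0 without ethanol 2, 2 without ethanol 1, ethanol 3 or saline 4, 3 with the library name number and 4 without saline 3 (Mrps28, Mrpl23, Mrps31 and Mrps16, all higher). Shares of all genes under these alternatives are not given here, so these counts have no background to be set against. The cause of the changes in count was not tested.

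The labels number the samples 1 to 4 in each group, and the deviations of same-numbered libraries correlated at only 0.0138 to 0.0796. Saline 2 and ethanol 2 also share the library name number 165, saline 3 and ethanol 3 share 163, and saline 4 and ethanol 4 share 164. Saline 1 (164) and ethanol 1 (165) do not share theirs. These correlations do not settle whether same-numbered libraries were paired. With the replicate block, limma called 0 genes, the median log2 fold was 0.02, and 2 of the 77 genes, Mrpl38 and Mrpl51, had an unadjusted p under 0.05. The share of all genes in that fit is not given here either. Not every library correlated best with its own number.

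Of 576 log2 folds of 32 named genes, 548 kept their sign and 28 in 11 genes, none of them called, did not. Mrpl1 (-0.01) became 0.0030 in DESeq2, 0.01 in edgeR and 0.02 after quantile normalization, and with the library name number Mrpl52 (-0.02) became 0.02 and Mrpl58 (-0.07) became 0.04. With each library left out in turn, the log2 folds ran from -0.09 to 0.10 for Mrpl1, -0.10 to 0.03 for Mrpl52, -0.16 to 0.06 for Mrpl58, -0.07 to 0.14 for Mrps12, -0.05 to 0.08 for Mrps18a, -0.04 to 0.20 for Mrps18b, -0.01 to 0.19 for Mrps21, -0.23 to 0.03 for Mrps22, -0.03 to 0.18 for Mrps25, -0.04 to 0.18 for Mrps35 and -0.20 to 0.01 for Mrps5. The interval of the fold change reached 1.5-fold for 9 of the 77 genes.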
